A study of Homo sapiens with 3 samples.

Results

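The 9 genes described here encode the cyclins of the cell cycle: the A-type cyclins CCNA1 and CCNA2, the B-type cyclins CCNB1 and CCNB2, the D-type cyclins CCND1, CCND2 and CCND3, and the E-type cyclins CCNE1 and CCNE2. They were chosen by symbol among the 58735 genes of the count table, and all 9 symbols were found once. Their RNA was measured in 3 poly(A) RNA-seq libraries of RPE-1, a human retinal pigment epithelial cell line immortalised with telomerase. The line carries GFP-labelled centrin 2, which marks centrioles, and a PLK4 gene that doxycycline can switch on through the transactivator rtTA. All 3 libraries form 1 group of cells that received scramble siRNA and in which PLK4 was not induced. No label says whether the line is 1 clone or whether the libraries came from separate cultures, so tests between them measure only a spread that may be technical.

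Cyclins are the regulatory subunits of cyclin-dependent kinases (CDKs), and each class acts in its own stretch of the cell cycle. D-type cyclins bind CDK4 and CDK6 in G1 in response to growth signals and start the phosphorylation of the retinoblastoma protein, which releases E2F transcription factors. E-type cyclins then drive entry into S phase with CDK2, A-type cyclins act in S phase and G2 with CDK2 and CDK1, and B-type cyclins take cells into mitosis with CDK1. E-, A- and B-type cyclins are made in periodic waves and destroyed by ubiquitin ligases, while transcription of D-type cyclins depends mainly on growth factors. In a population that cycles without synchrony, an RNA level averages over cells in all phases, and fewer cells in a phase cannot be told apart from less RNA per cell in that phase.

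The promoter sequences of CCNA2, CCNB1 and CCNB2 are shown first. They were picked because these cyclins of S phase, G2 and mitosis were each lowest in library 1 beyond counting noise. This held for 33.4% of all genes tested. The promoter of CCNE1 is set beside them as that of a cyclin that did not pass the test for movement. Any link between the elements described below and the levels in library 1 was not tested. CCND3 was also lowest in library 1 beyond counting noise. Its 3 windows, at 3 annotated starts, are not printed: none holds a CHR match, and 2 of them hold 1 CCAAT box each. Windows run from 250 bases before to 50 bases after the annotated start and were taken from RefSeq on GRCh38.p14, where 6 of the 9 genes had one. CCND1, CCND2 and CCNE2 had none in the table used. Capitals mark letter matches to CHR elements and CCAAT boxes on either strand, and binding was not measured. The CHR (cell cycle genes homology region) is the element through which the MuvB complexes, among them DREAM, act on genes of G2 and mitosis, and the CCAAT box is the binding motif of NF-Y. The windows lie at chr4:121823834-121824133 on the minus strand for CCNA2, chr5:69166900-69167199 on the plus strand for CCNB1, chr15:59104896-59105195 on the plus strand for CCNB2 and chr19:29811741-29812040 on the plus strand for CCNE1.
CCNA2: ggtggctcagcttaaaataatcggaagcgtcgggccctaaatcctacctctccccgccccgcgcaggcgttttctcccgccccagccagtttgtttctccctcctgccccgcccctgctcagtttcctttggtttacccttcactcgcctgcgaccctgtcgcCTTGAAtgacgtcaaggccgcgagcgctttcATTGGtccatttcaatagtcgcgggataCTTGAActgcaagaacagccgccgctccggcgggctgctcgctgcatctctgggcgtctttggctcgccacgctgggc
CCNB1: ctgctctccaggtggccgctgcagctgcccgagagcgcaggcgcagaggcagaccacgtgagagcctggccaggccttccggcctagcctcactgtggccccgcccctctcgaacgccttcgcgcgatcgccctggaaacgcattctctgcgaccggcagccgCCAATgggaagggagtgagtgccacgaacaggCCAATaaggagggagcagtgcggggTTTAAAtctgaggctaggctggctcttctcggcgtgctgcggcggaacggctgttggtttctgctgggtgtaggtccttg
CCNB2: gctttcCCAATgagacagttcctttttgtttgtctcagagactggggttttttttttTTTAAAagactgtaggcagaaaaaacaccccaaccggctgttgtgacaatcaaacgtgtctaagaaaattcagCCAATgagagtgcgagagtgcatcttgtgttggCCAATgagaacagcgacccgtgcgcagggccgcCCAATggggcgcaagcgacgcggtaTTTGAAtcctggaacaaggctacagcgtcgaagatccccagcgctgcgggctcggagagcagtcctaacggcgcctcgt
CCNE1: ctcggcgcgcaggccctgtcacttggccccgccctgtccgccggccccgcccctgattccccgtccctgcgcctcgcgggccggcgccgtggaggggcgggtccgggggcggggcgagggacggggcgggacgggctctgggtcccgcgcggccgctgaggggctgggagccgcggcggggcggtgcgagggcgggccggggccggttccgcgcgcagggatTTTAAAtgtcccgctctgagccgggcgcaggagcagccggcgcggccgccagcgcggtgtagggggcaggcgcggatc

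The 3 late cyclin promoters shared an arrangement close to the RefSeq start. The gene spans given below, from GENCODE, begin further upstream for CCNA2, CCNB1, CCNB2 and CCNE1. The offsets therefore hold for the RefSeq starts only. A CHR match began 28 bases before the start in CCNA2, 30 bases before it in CCNB1 and 29 bases before it in CCNB2, each with different letters, as the capitals show. A CCAAT box began 28, 25 and 25 bases upstream of that CHR in CCNA2, CCNB1 and CCNB2, and in CCNA2 it lay on the opposite strand. CCNB1 held 2 CCAAT boxes and CCNB2 held 4, and in both genes 1 of them began 87 bases before the start. CCNE1 had a CHR match with the letters of CCNB1 28 bases before its start and no CCAAT box. It held 7 GC boxes (GGGCGG), the motif of SP1, against 3 in CCNA2 and 1 each in CCNB1 and CCNB2. Its window was 81% G and C, against 61% in CCNA2, 65.3% in CCNB1, 52% in CCNB2 and a median of 58.7% over all windows.

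Matches of this kind are common one at a time. For the CHR, TTTGAA (as in CCNB2) was searched on both strands and found in 15.2% of the 35097 windows of this length. Of the variants searched likewise, the letters TTCGAA matched in 1.45% of windows. The letters CTTGAA of the CCNA2 promoter matched in 11.2% of windows. The letters TTTAAA of the CCNB1 promoter matched in 12.2%, and 32.2% of windows held at least 1 of the 4. A CCAAT box stood in 34.6% of windows and a GC box in 44.9%. The E2F letters TTCCCGC and TTGGCGC, found in 9.23% of windows, matched in none of the 8 windows of cyclin genes, which include 3 starts of CCND3 and 1 of CCNA1. With so low a share and only 8 windows, this absence is not a result about the cyclins. Other forms of the E2F site were not searched. A cAMP response element core (TGACGT, 7.98% of windows) was present in CCNA2 alone among the cyclin windows, on both strands with the 2 matches overlapping, and the CTTGAA before it lies directly against it. A CHR and a CCAAT box were both present somewhere in 12.4% of windows, and a CHR 25 to 28 bases downstream of a CCAAT box in 0.331%. When the CHR had also to begin 28 to 30 bases before the start, 11 genes remained, or 0.0313% of windows. These limits were read off the 3 cyclins, so their own presence among the 11 is not a result. Of the other 8 genes, 2 were expressed in these cells, the mitotic kinesin gene KIF11 (135, 125.4 and 143.9 CPM in libraries 1, 2 and 3) and the importin gene KPNA2 (361, 409 and 422 CPM). DSPP, ODAM and SOST had at most 1 count in a library, and the other 3 were not matched to the count table by symbol.

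**Figure D1:**
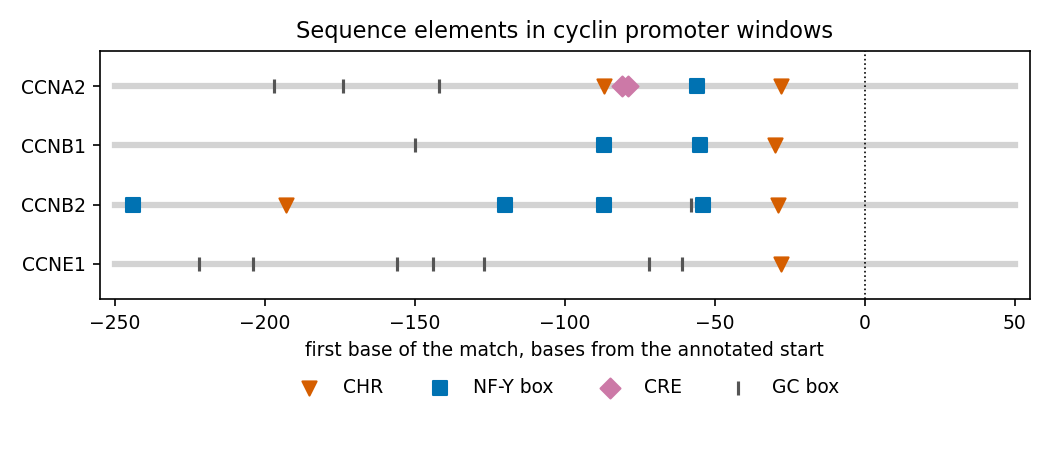
Positions of sequence elements in the promoter windows of 4 cyclin genes, with the first base of each match in bases from the annotated start (dotted line) on the horizontal axis and 1 gene a row. CCNA2, CCNB1 and CCNB2 each have a CHR match 28 to 30 bases before the start with an NF-Y (CCAAT) box match 25 to 28 bases upstream of it. CCNE1 has a CHR match (TTTAAA) 28 bases before the start and no NF-Y box match. GC boxes stand in all 4 windows, with most of them in CCNE1.

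Of the 9 cyclin genes, 7 were detected, with at least 1 CPM (counts per 1000000 scaled library counts) in each library, and CCNA1 and CCND2 were not. For comparison, 57.7% of the 19951 protein-coding genes and 21.5% of all genes were detected. Levels between genes are given as RPKM, the CPM divided by the merged exon length of a gene in kilobases. The order of mean RPKM ran CCND1, CCNA2, CCNB2, CCNB1, CCND3, CCNE2 and CCNE1, over a range from 158 down to 2.45 RPKM. Neighbours in that order did not overlap over the 3 libraries, except CCNB2 and CCNB1. The median level of the 7 detected cyclins was 29.7 RPKM, against 6.09 RPKM over all 11508 detected protein-coding genes. Of 18 further cyclin genes, 16 were detected, with a median of 8.33 RPKM. The highest of those were CCNI (94.3 ± 2.70 RPKM, SD, n = 3) and CCNG1 (93.7 ± 4.96 RPKM), a p53 target, and the lowest detected was CCNJ (2.25 ± 0.295 RPKM). CCNB3, a B-type cyclin known mainly from meiosis, was below detection with 8, 10 and 9 counts, and CCNI2 with 0, 6 and 1 counts.

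**Figure D2:**
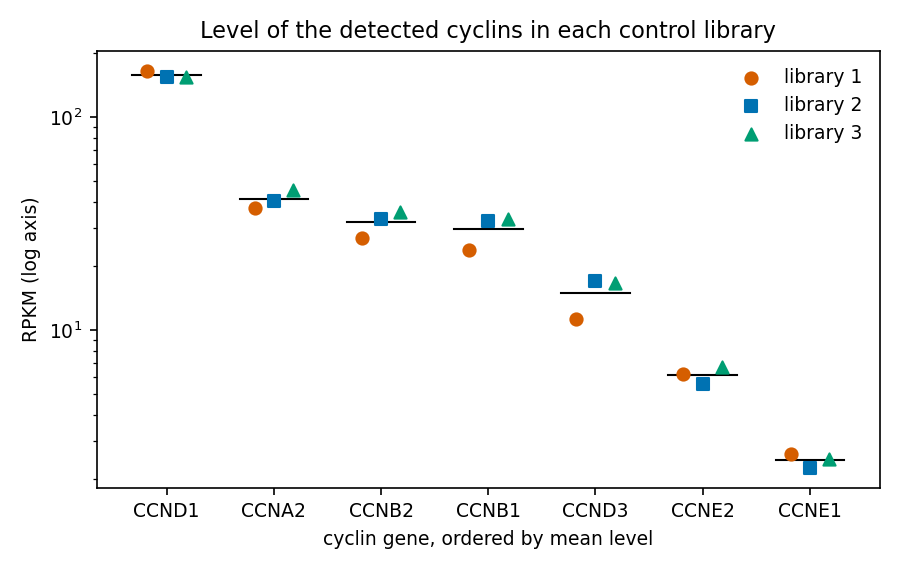
RPKM of the 7 detected cyclin genes (log axis) in each of the 3 control libraries, with points for libraries and a line at the mean of 3. CCND1 stands above all others at 154 to 165 RPKM, CCNB1 and CCNB2 overlap, and CCNE1 is lowest at 2.25 to 2.62 RPKM, while CCNA1 and CCND2 are not drawn because they were below detection.

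CCND1, which encodes cyclin D1, was the most abundant of the 9. CCND1 (ENSG00000110092) lies on chromosome 11 from 69641087 to 69654474 on the plus strand of GRCh38, with 5 exons in its longest transcript. It had 38701, 45109 and 34893 counts, or 165, 154 and 154 RPKM in libraries 1, 2 and 3 (mean 158 ± 6.36 RPKM, SD, n = 3). Library 1 was slightly above the other libraries, which were nearly equal. CCNA2, the next of the 9, was 3.84-fold lower in mean RPKM. Exons of LTO1 on the opposite strand cover 10.3% of the CCND1 exon length, and LTO1 itself had 979, 1047 and 620 counts. The strand setting of the counting is not given in the sources used here, so reads in the shared stretch cannot be told apart.

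The other D-type cyclins differed widely from CCND1. CCND3 (ENSG00000112576, chromosome 6, 41934933 to 42050357, minus strand) encodes cyclin D3 and had 3180, 5954 and 4529 counts, or 11.3, 16.9 and 16.7 RPKM (mean 14.96 ± 3.17 RPKM, SD, n = 3). Library 1 was low, and libraries 2 and 3 were alike. CCND1 exceeded CCND3 by log2 ratios of 3.87, 3.19 and 3.21 in libraries 1, 2 and 3, a 10.7-fold mean difference per exon length. The place of CCND3 in the order depended on the length used, since its 23 annotated transcripts make the union of exons (5802 bases) much longer than the longest transcript (2394 bases). Per length of the longest transcript CCND3 stood at 36.2 RPKM, above CCNB2 (35.8 RPKM) and CCNB1 (35.1 RPKM), while CCND1 stood at 177 RPKM.

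CCND2 (ENSG00000118971, chromosome 12, 4273772 to 4305350, plus strand), which encodes cyclin D2, had 0 counts in libraries 1, 2 and 3. Taking 3 counts as the upper limit for such a 0, levels up to 0.0618, 0.0494 and 0.0641 CPM remain possible by counting error alone. With that floor, CCND1 was at least 17235-fold higher than CCND2 per exon length in every library. AC008012.1, which shares 13.8% of the CCND2 exon length on the same strand, and the antisense gene CCND2-AS1 also had 0 counts. D-type cyclin RNA in these cells was therefore counted at CCND1 and CCND3.

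E-type cyclins were the least abundant of the detected classes, and CCNE2 exceeded CCNE1. CCNE1 (ENSG00000105173, chromosome 19, 29811898 to 29824308, plus strand) encodes cyclin E1 and had 324, 348 and 296 counts, or 2.62, 2.25 and 2.48 RPKM (mean 2.45 ± 0.188 RPKM, SD, n = 3). CCNE2 (ENSG00000175305, chromosome 8, 94879770 to 94896678, minus strand), the gene of cyclin E2, had 1328, 1482 and 1379 counts, or 6.22, 5.55 and 6.70 RPKM (mean 6.16 ± 0.580 RPKM). Every CCNE2 value lay above every CCNE1 value. The log2 ratio of CCNE1 to CCNE2 was -1.25, -1.30 and -1.43 in the 3 libraries, so CCNE2 was 2.51-fold higher on average per exon length, and without length the mean log2 ratio was -2.11. INTS8 and AC087752.4 on the opposite strand cover 37.1% of the CCNE2 exon length. INTS8 had 1994, 2457 and 1938 counts of its own, and without the strand setting the reads of that stretch cannot be assigned with certainty.

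CCNA2 was the only A-type cyclin detected. CCNA2 (ENSG00000145386, chromosome 4, 121816444 to 121823933, minus strand), the cyclin A gene of dividing somatic cells, had 5064, 6882 and 5955 counts, or 37.3, 40.5 and 45.5 RPKM (mean 41.1 ± 4.13 RPKM, SD, n = 3). It was lowest in library 1 and highest in library 3. CCNA1 (ENSG00000133101, chromosome 13, 36431520 to 36442882, plus strand), known mainly from the male germ line, had 0, 1 and 0 counts. Summed over the libraries, CCNA2 had 17901 counts and CCNA1 had 1, a ratio per exon length of 15355 with an exact Clopper-Pearson 95% interval from 2756 to 606511 that covers counting error only. EXOSC9 on the opposite strand covers 9.08% of the CCNA2 exon length and had 2731, 2984 and 2423 counts.

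The B-type cyclins were close to each other in level. CCNB1 (ENSG00000134057, chromosome 5, 69167010 to 69178245, plus strand), whose product with CDK1 is the main trigger of mitosis, had 2933, 5036 and 3972 counts, or 23.6, 32.4 and 33.2 RPKM (mean 29.7 ± 5.31 RPKM, SD, n = 3). CCNB2 (ENSG00000157456, chromosome 15, 59105078 to 59125045, plus strand), whose product is found largely at the Golgi apparatus, had 3670, 5633 and 4693 counts, or 27.0, 33.1 and 35.8 RPKM (mean 31.97 ± 4.52 RPKM). Both genes were lowest in library 1, and their ranges overlapped. The log2 ratio of CCNB1 to CCNB2 was -0.19, -0.03 and -0.11, a 1.08-fold mean difference in favour of CCNB2. No exon of either gene is shared with another annotated gene.

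Each of these 5 ratios between cyclins of a class kept its sign in 3 of 3 libraries. With 3 libraries the two-sided exact sign-flip test cannot go below 0.25, and all 5 ratios had this p, also after Benjamini-Hochberg adjustment over the 5. Per length of the longest transcript, the ratio of CCNB1 to CCNB2 was -0.04 on the log2 scale and no longer had 1 sign (exact sign-flip p = 0.75).

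D-type cyclins made up most of the cyclin signal. They held 64.6%, 59.99% and 58.0% of the summed cyclin RPKM in libraries 1, 2 and 3 (mean 60.9 ± 3.35%, SD, n = 3). B-type cyclins held 18.5%, 23.0% and 23.4% (21.7 ± 2.71%), A-type cyclins 13.7%, 14.2% and 15.4% (14.4 ± 0.907%) and E-type cyclins 3.24%, 2.74% and 3.12% (3.03 ± 0.259%). The D-type share was highest and the A- and B-type shares lowest in library 1. The order of the classes was the same in each library. The summed RPKM of B-type cyclins was 50.6 in library 1 against 65.5 and 69.0 in libraries 2 and 3, while that of D-type cyclins was 176 against 171 and 171.

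**Figure D3:**
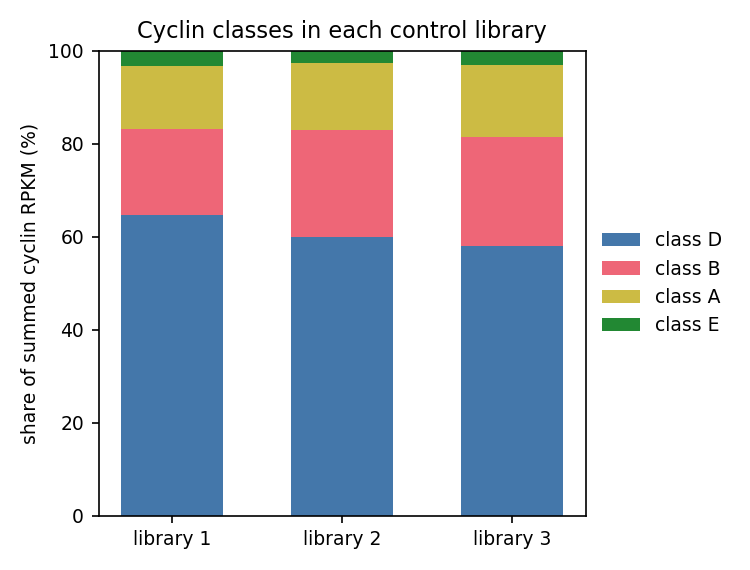
Share of the summed RPKM of the 9 cyclin genes held by each class (percent, stacked bars from 0 to 100) in the 3 control libraries. Class D takes 64.6%, 59.99% and 58.0% and class B 18.5%, 23.0% and 23.4% in libraries 1, 2 and 3.

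The 3 libraries were compared to ask which cyclins differed within this 1 control state. Library totals lay between 46625774 and 60040029 counts and the 9 cyclins took 0.112% to 0.120% of them. Library 1 had 19953 genes with counts, against 24416 and 23050 in libraries 2 and 3, although its total exceeded that of library 3. Over all genes library 1 stood apart, with an SD of log2 ratios of 0.355 and 0.351 to libraries 2 and 3, against 0.187 between libraries 2 and 3. Counts of genes that passed are therefore also given without it. The spread of each gene was tested by a chi-square test that sets its counts against the library sizes, with Benjamini-Hochberg adjustment over 16293 genes, which asks only whether the libraries differed by more than counting noise. Of these genes 68.6% passed at an adjusted p under 0.05. Of the 7 cyclins with enough counts, 6 passed, which is near that background. Without library 1, 3 of these 7 passed (CCNA2, CCNB2 and CCNE2), beside 28.1% of the 16321 genes tested between libraries 2 and 3. The median ratio of highest to lowest CPM was 1.22 for the 7 cyclins and 1.246 for all genes tested.

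Late cyclins and CCND3 were lowest in library 1. CCND3 stood at 65.5 CPM in library 1 against 98.0 and 96.8 CPM in libraries 2 and 3, the widest spread among the 9 genes (1.496-fold, chi-square adjusted p = 4.83e-84). CCNB1 stood at 60.4 CPM against 82.9 and 84.9 CPM (1.41-fold, adjusted p = 1.95e-51), and CCNB2 at 75.6 CPM against 92.7 and 100.3 CPM (1.33-fold, adjusted p = 5.21e-37). For CCNA2 the values were 104, 113 and 127 CPM (1.22-fold, adjusted p = 6.46e-24). These 4 genes were the called cyclins with library 1 lowest, and 33.4% of all genes tested were called with library 1 lowest. Without library 1, CCNB1 (adjusted p = 0.436) and CCND3 (adjusted p = 0.697) no longer passed, and CCNA2 and CCNB2 still did. Both were lower in library 2 than in library 3, as were 2389 of the 4581 genes called without library 1.

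The remaining cyclins moved little or in other directions. CCND1 was highest in library 1, at 797 CPM against 742.5 and 746 CPM, a 1.07-fold spread on 34893 to 45109 counts that passed the test (chi-square adjusted p = 5.34e-27) and did not pass without library 1 (adjusted p = 0.701). CCNE2 was lowest in library 2, with 27.4, 24.4 and 29.5 CPM (1.21-fold, adjusted p = 5.94e-06), and did not pass without that library (adjusted p = 0.0861) but did without library 1 (adjusted p = 5.52e-06). CCND1 and CCNE2 were the called cyclins with library 2 lowest, beside 20.2% of all genes tested, and CCND1 was the called cyclin with library 1 highest, beside 27.9%. For CCND1 libraries 2 and 3 were nearly equal, and under plain library totals library 3 was the lowest. CCNE1 had 6.675, 5.73 and 6.33 CPM. This 1.17-fold spread did not exceed counting noise in the chi-square test over all genes (unadjusted p = 0.131, adjusted p = 0.166), nor without library 1 (adjusted p = 0.372). Its 296 to 348 counts per library limit what could be detected. When each gene was allowed an extra coefficient of variation of 0.05, CCNB1, CCNB2 and CCND3 passed and the other 4 cyclins did not, and 32.7% of all genes passed. This allowance was small. The common coefficient of variation beyond counting noise, estimated by edgeR over filtered genes, was 0.135 for all libraries and 0.0603 without library 1. Whether any cyclin would pass with an allowance of that size was not tested.

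**Figure D4:**
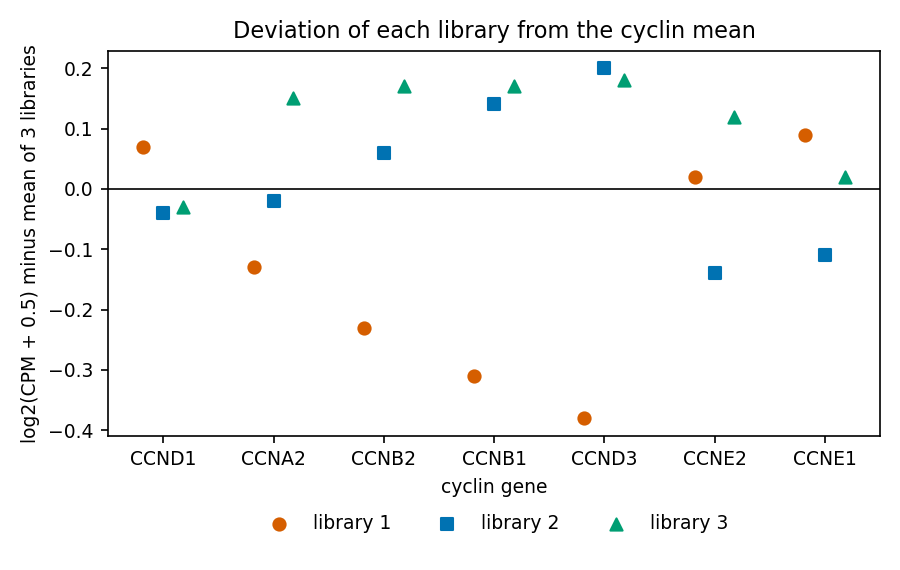
Deviation of each library from the mean of the 3 libraries, in log2(CPM + 0.5), for the 7 detected cyclin genes ordered by level. Library 1 lies at -0.13 for CCNA2, -0.23 for CCNB2, -0.31 for CCNB1 and -0.38 for CCND3, and at 0.07 for CCND1, while the E-type cyclins are lowest in library 2.

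The genes nearest to 2 cyclins in level and pattern were found by the Euclidean distance of log2(CPM + 0.5) over the 3 libraries among all genes tested. Closest to CCNB1 were CDC20 (60.4, 83.7 and 87.8 CPM, distance 0.050), the activator of the anaphase-promoting complex, COX7C (58.0, 82.0 and 83.9 CPM, distance 0.063), a subunit of cytochrome c oxidase, and DTYMK (63.9, 82.9 and 84.1 CPM, distance 0.082), thymidylate kinase. CDC20 and CCNB1 both had 2933 counts in library 1. Closest to CCND1 were TIMP2 (779, 750.1 and 740.5 CPM, distance 0.038), an inhibitor of metalloproteinases, CAP1 (804, 763 and 788 CPM, distance 0.089), an actin regulator, and B2M (842, 725 and 759.5 CPM, distance 0.089), the light chain of MHC class I. With 3 libraries of 1 state such a likeness describes these libraries only.

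The catalytic partners of the cyclins were all detected. CDK4 stood at 70.0 ± 4.88 RPKM, CDK2 at 38.9 ± 4.24, CDK1 at 36.6 ± 3.78 and CDK6 at 2.41 ± 0.233 RPKM (SD, n = 3 each). CDK4, CDK2 and CDK1 were lowest in library 1, as CCNA2, CCNB1 and CCNB2 were, with 131, 140.1 and 160.1 CPM for CDK1 in libraries 1, 2 and 3 (chi-square adjusted p = 1.19e-31). CDK6 was highest there, with 31.5, 26.3 and 31.0 CPM (adjusted p = 6.23e-07). All 4 passed the test, beside 68.6% of all genes tested, and all 4 also passed without library 1, beside 28.1%. CCND1 thus stood above both of its kinases in RPKM in these libraries, whereas CDK2 stood above CCNE1 and CCNE2. CDK1 was near the B-type cyclins in RPKM, but this depended on the length used. The union of CDK1 exons has 3931 bases, against 1948 for its longest transcript. Without length, CDK1 had a mean of 143.8 CPM, above CCNB1 (76.1 CPM) and CCNB2 (89.55 CPM). TSPAN31 on the opposite strand covers 43.2% of the CDK4 exon length and had 226, 273 and 224 counts, and PMEL and AC025162.1 cover 16.8% of CDK2. Without the strand setting, reads of these stretches cannot be assigned with certainty, so these counts do not show that CDK4 was unaffected.

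Of the 7 CDK inhibitors 6 were detected, and all 6 had a spread beyond counting noise, 3 lowest and 3 highest in library 1. Over all genes tested 68.6% were called, 33.4% with library 1 lowest and 27.9% with library 1 highest. Without library 1, 2 of 7 inhibitors tested passed, beside 28.1% of all genes. CDKN1A, which encodes p21, stood at 697.5 ± 53.9 RPKM, above each of the 9 cyclins, and CDKN1B, which encodes p27, at 36.3 ± 2.95 RPKM (SD, n = 3). Among inhibitors of CDK4 and CDK6, CDKN2A stood at 26.3 ± 4.51, CDKN2C at 21.2 ± 2.37, CDKN2D at 11.7 ± 1.02 and CDKN2B at 7.53 ± 0.872 RPKM. The RPKM of CDKN2A depends on the length used, 4329 bases for the union of exons against 1283 for the longest transcript. Its 14 annotated transcripts were counted together. CDKN2A was highest in library 1, with 136 CPM against 101.4 and 104 CPM (chi-square adjusted p = 1.51e-73). CDKN1C, which encodes p57, was below detection with 0, 10 and 10 counts.

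Genes that set the activity of cyclin-CDK complexes were detected for 10 of 10, with a median of 8.16 RPKM, and all 10 passed the chi-square test, 7 with library 1 lowest, beside 68.6% and 33.4% of all genes tested. Without library 1, 2 of the 10 passed, beside 28.1% of all genes. CKS2 (138.5 ± 12.3 RPKM), a small CDK-binding protein, and the phosphatase CDC25B (24.1 ± 3.77 RPKM) were highest, and CDC25C (4.17 ± 0.625 RPKM) was lowest. WEE1, the kinase that holds CDK1 inactive, had the widest spread and went the opposite way to the B-type cyclins, with 63.6 CPM in library 1 against 40.5 and 39.1 CPM (1.63-fold, adjusted p = 1.28e-85).

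Genes for the destruction of cyclins were all detected, 21 of 21, with a median of 11.4 RPKM. The chi-square test called 17 of the 21, and 12 of the 21 were called with library 1 lowest, beside 68.6% and 33.4% of all genes tested. Without library 1, 7 passed (33.3%, beside 28.1% of all genes). The ubiquitin-conjugating enzymes of the anaphase-promoting complex, UBE2C (82.5 ± 7.28 RPKM) and UBE2S (76.0 ± 6.82 RPKM), were highest and its subunit ANAPC10 (0.553 ± 0.0253 RPKM) lowest. The RPKM of ANAPC10 depends on the length used, 4522 bases for the union of exons against 1674 for the longest transcript. Other genes on the same strand share 24.6% of its exon length. RBX1, the RING subunit of cullin ligases, had the widest spread, with 23.9 CPM in library 1 against 34.2 and 35.6 CPM (adjusted p = 9e-28).

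Regulators of cyclin transcription were detected throughout. All 13 E2F and pocket protein genes were detected (median 7.76 RPKM), and 9 of them were called by the chi-square test (69.2%, near the 68.6% of all genes tested), 6 of the 13 with library 1 lowest, beside 33.4%. Without library 1, 3 of the 13 passed, beside 28.1% of all genes. TFDP1 (53.7 ± 7.51 RPKM), the dimerisation partner of E2F, and the repressor E2F7 (26.7 ± 4.29 RPKM) were highest, while E2F2 was both the lowest (0.439 ± 0.142 RPKM) and the most variable, with 74, 182 and 125 counts (1.97-fold, adjusted p = 8.47e-06). All 10 genes of DREAM, B-MYB, FOXM1 and NF-Y were detected (median 7.21 RPKM), with 9 of the 10 called and 7 of the 10 called with library 1 lowest, beside 68.6% and 33.4% of all genes tested. Without library 1, 4 of these 10 passed, beside 28.1%. FOXM1 (87.8 ± 6.27 RPKM) and MYBL2 (33.0 ± 4.19 RPKM), which activate genes of G2 and mitosis, were highest, and LIN37 (1.75 ± 0.386 RPKM), a MuvB subunit, was lowest and most variable (184, 362 and 236 counts, 1.57-fold, adjusted p = 8.69e-06). Other genes share 26.7% of the LIN37 exon length on the same strand and 41.8% on the opposite strand. Reads of these stretches cannot be assigned with certainty. NFYA, NFYB and NFYC, named after their values were seen, were among the 7 called with library 1 lowest. NFYA had 34.4, 39.95 and 42.5 CPM in libraries 1, 2 and 3. NFYB had 37.5, 39.5 and 47.5 CPM, and NFYC had 31.9, 41.2 and 35.8 CPM. In the same list LIN9 (14.6, 13.6 and 13.9 CPM, not called) and LIN52 (12.9, 11.2 and 10.35 CPM) were highest in library 1. LIN54 was lowest in library 2.

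Most other genes of the same phases were also lowest in library 1. The list of G2 and mitosis genes was detected in full (16 of 16, median 22.9 RPKM), 15 of the 16 were called by the chi-square test and 12 of the 16 were called with library 1 lowest, beside 68.6% and 33.4% of all genes tested. Without library 1, 12 of the 16 passed, beside 28.1% of all genes. All 12 were lower in library 2 than in library 3, beside 2389 of the 4581 genes called without library 1. Their median deviations were -0.13, 0.00 and 0.12 in libraries 1, 2 and 3 on the log2 scale, against -0.01, 0.01 and 0.01 over all genes tested. TOP2A (92.4 ± 9.75 RPKM) and TPX2 (57.9 ± 2.49 RPKM) were highest and TTK (13.0 ± 1.57 RPKM) lowest, and DLGAP5 had the widest spread (67.8, 84.5 and 93.5 CPM, 1.38-fold, adjusted p = 8.98e-43). Of the 18 G1/S genes, all detected (median 18.1 RPKM), 15 were called and 12 of the 18 were called with library 1 lowest, beside 68.6% and 33.4% of all genes, with median deviations of -0.06, -0.01 and 0.06. Without library 1, 10 of the 18 passed, beside 28.1% of all genes, and all 10 were likewise lower in library 2 than in library 3. PCNA (236 ± 12.5 RPKM) and TYMS (108.5 ± 8.66 RPKM) were highest there, and MCM6 was lowest (4.57 ± 0.542 RPKM) and most variable (16.8, 18.5 and 21.2 CPM, adjusted p = 8.64e-06). With the extra coefficient of variation of 0.05 5 of the 16 G2 and mitosis genes (31.2%) and 2 of the 18 G1/S genes (11.1%) passed, beside 32.7% of all genes tested.

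Immediate early genes, which growth signals and stress induce within minutes to hours, moved with library 1 in the opposite direction. All 12 passed the chi-square test and all 12 were highest in library 1 and lowest in library 3, with median deviations of 0.62, -0.22 and -0.47 on the log2 scale. Over all genes tested 68.6% were called, 27.9% with library 1 highest and 15% with library 3 lowest. Without library 1, 9 of the 12 passed, beside 28.1% of all genes. FOSL1 (415, 312 and 304.5 CPM) and DUSP1 (114, 96.1 and 94.6 CPM) were the highest in RPKM, and FOS was the lowest detected (13.8, 9.35 and 5.62 CPM). EGR3 had the widest spread (9.07, 1.37 and 0.620 CPM, 14.6-fold, adjusted p = 5.03e-132), and it and EGR2 were below detection in library 3. CCND1, a known target of AP-1 factors, was also highest in library 1 and differed by 1.07-fold over the same libraries. The part of these genes in the spread of the cyclins was not tested. Among the other cyclins 15 of 16 tested genes were called, 6 lowest and 7 highest in library 1, beside 68.6%, 33.4% and 27.9% of all genes tested. Without library 1, 9 of the 16 passed, beside 28.1%. In this list CCNO had the widest spread (7.95, 12.1 and 11.1 CPM, 1.52-fold, adjusted p = 3.07e-10).

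**Figure D5:**
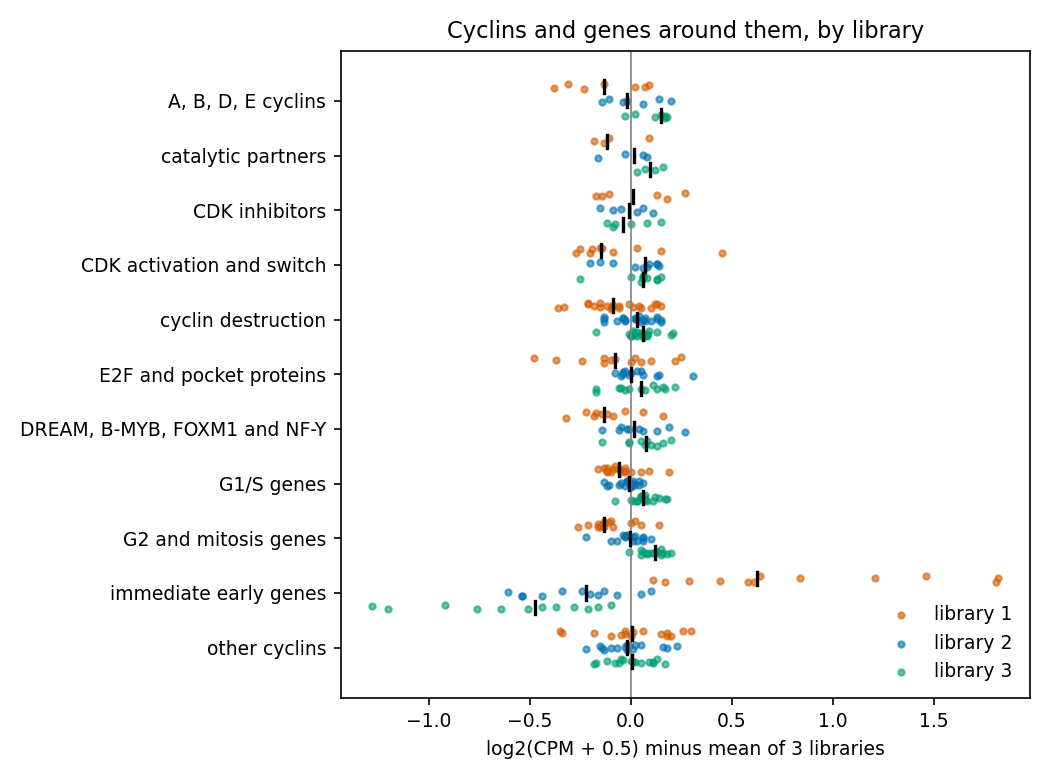
Deviation of each library from the mean of the 3 libraries, in log2(CPM + 0.5), for the cyclins and 10 lists of genes around them, with 1 point per gene and library and a black bar at each median. The cyclins and the G2 and mitosis genes have medians of -0.13 in library 1, and the immediate early genes have a median of 0.62 there.

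Markers were checked for the identity of the cells. Of 10 pigment epithelium markers 5 were detected, among them OTX2 (5.47 RPKM) and MITF (3.05 RPKM), but RPE65 had 8, 6 and 0 counts, RLBP1 1, 7 and 3 counts, and TYR, DCT and TTR none. Of 6 mesenchymal and matrix markers 5 were detected, led by VIM (1518 RPKM). The epithelial keratin genes KRT8 and KRT18 were detected, and CDH1 and EPCAM had at most 5 counts per library. Of 4 blood, 4 neuron and 3 liver markers, 2, 3 and 1 were detected, the highest being the neuron marker SYT1 (13.9 RPKM), and CD3E, HBB, RBFOX3 and APOA1 had 0 counts in all libraries.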

How the data were processed

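Poly(A) RNA of RPE-1 cells was sequenced in 3 libraries of 1 group. The authors deposited whole-number read counts per gene, not normalised. Per the submitters' processing notes, cutadapt 1.16, STAR 2.5.2a, featureCounts 1.6.2 and hg38 were used; the sources used here give no roles, strand setting or annotation. The table held 6 further columns of per-sample values that match no sample label given here and were not used.

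TMM factors (0.985, 1.01 and 1.00) came from edgeR 4.0.16 in R 4.3.3. CPM refers to totals of 49279692, 60040029 and 46625774 scaled by them, and RPKM to the union of exons in GENCODE release 29 (GRCh38), which all 58735 gene identifiers matched. The spread of each gene was tested by chi-square (2 degrees of freedom) where counts averaged 10 or more, at a Benjamini-Hochberg adjusted p of 0.05; the code was tested on simulated counts. With 1 group, no test between groups was possible. Ratios used a pseudocount of 0.5 count. Floors (3 counts) and 95% intervals cover counting error only. Alternatives were DESeq2 1.42.0 size factors, plain totals, no count filter, an extra coefficient of variation of 0.05, other detection limits, the longest transcript or no length, a pseudocount of 1 count, and leaving out each library.

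Named genes were all cyclins of the 4 classes, all catalytic partners and all CDK inhibitors. From each other list the rule took the 2 highest and the lowest detected genes, the called gene with the widest spread and genes below detection, and for CCNB1 and CCND1 the 3 nearest genes. NFYA, NFYB, NFYC, LIN9, LIN52, LIN54, KIF11, KPNA2, DSPP, ODAM, SOST and genes that overlap a cyclin or CDK gene were chosen after values or matches were seen. The members and lists were chosen with earlier results of these data known. One further marker gene is not reported here.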

Additional observations from a re-analysis of the deposited data

How the results depend on the processing

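No paired analysis was possible because the libraries form 1 group. Detection of 7 of 9 cyclins and the sign of the mean of each of the 5 ratios were the same under every alternative run for them, although the ratio of CCNB1 to CCNB2 came to -0.04 per length of the longest transcript, where the 3 libraries no longer had 1 sign. The 11182 genes and 6 cyclins with a spread beyond counting noise became 5322 genes and 3 cyclins when an extra coefficient of variation of 0.05 was allowed. Leaving out 1 library each gave 4581 to 10016 genes and 3 to 6 cyclins, the lowest of both without library 1, where by construction fewer libraries were compared and the one that stood apart was gone. Under DESeq2 size factors, plain totals and no count filter 6 cyclins passed. Class shares depended on length: per longest transcript class A held 12.2% and class E 3.33%, and without length class A held 9.88%, class B 14.2% and class D 73.0%. The order of the classes was D, B, A and E in each case. Depth limits CCNE1, CCNA1 and CCND2, whose differences between libraries were not detectable at these counts.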
